A study of Mus with 12 samples.

Results

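Loss of the retinoic acid receptor RARα was compared directly with loss of the AP-1 family factor BATF in CD8 T cells, both without added retinoic acid (RA). The comparison used 4 of the 12 RNA-seq libraries of the series, chosen by their titles, with 2 libraries of RARα-KO cells and 2 of BATF-KO cells, and it ran across all genes of the deposited expression table. Naive CD8 T cells had been isolated from spleens, and the labels give the mice as C57BL/6. RARα-KO cells came from mice in which a Cre recombinase, driven by the distal Lck promoter that is active in T cells, deleted a floxed Rara gene, whereas BATF-KO cells are labelled by genotype alone and carried no Cre by that label. Every group was stimulated in the same way for 20 h. Plate-bound anti-CD3 was used at 1 µg/ml and anti-CD28 at 2 µg/ml, IL-2 was added at 100 U/ml, and the serum (10%) had been treated with charcoal, which removes retinoids. The 2 wild-type (WT) libraries cultured in the same way and the 4 knockout libraries that received RA at 15 nM served as reference points. Mice of both sexes, aged 6 to 10 weeks, were used in most experiments of the study, which also states a later focus on males. Xist, an RNA of female cells, was at 0 to 0.09 FPKM across the 12 libraries. The age behind these libraries is not given in the sources used here, and neither is whether replicates came from separate animals, so the p-values reflect the spread among these libraries, which may be technical.

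RARα is a nuclear receptor that binds retinoic acid response elements with an RXR partner, holds many of its targets down when no ligand is bound, and can also repress AP-1 dependent transcription. BATF is a basic leucine zipper protein that pairs with JUN proteins, binds composite DNA elements together with IRF4 or IRF8, and opens chromatin of effector genes after T cell receptor stimulation. In activated CD8 T cells both are linked to the switch from a naive state to a cytotoxic effector state, and comparing the knockouts directly asks where the absence of a repressor and the absence of an activator leave the cell at opposite ends.

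Values are FPKM, the number of fragments assigned to a gene after division by transcript length and by the library's mapped fragments, and differences are given as log2 fold changes of FPKM + 1, RARα-KO minus BATF-KO, with their standard error (SE). A positive value means higher in RARα-KO cells. A gene was called when the limma test had a Benjamini-Hochberg adjusted p under 0.05 over all 13396 genes tested. Between 12085 and 12486 genes reached 1 FPKM in each of the 12 libraries, the correlation across genes between replicates was 0.973 to 0.986, and the mitochondrial share of FPKM was 3.96% to 5.74%. Relative depth, read approximately from the steps between low values by an estimator chosen after seeing the data, was 0.943 and 1.36 for RARα-KO replicates 1 and 2. It was 1.10 and 1.15 for the BATF-KO replicates, with WT replicate 1 set to 1. The RARα-KO replicates differed from each other by at least 1 on the log2 scale at 561 genes, and the BATF-KO replicates at 205 genes.

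The targeted genes were examined first. Batf (chromosome 12, 85686720 to 85709087 in GRCm38) was at 4.90 and 4.74 FPKM in BATF-KO cells, 20.20 and 34.05 FPKM in RARα-KO cells, and 24.48 and 23.28 FPKM in WT cells. The BATF-KO libraries were therefore the low ones, with transcript remaining, and the log2 fold change between the knockouts was 2.23 ± 0.26 (SE, limma adjusted p = 0.0016). Rara (chromosome 11, 98927800 to 98974942) was at 17.86 and 15.26 FPKM in RARα-KO cells, 17.58 and 15.40 FPKM in BATF-KO cells and 14.64 and 14.04 FPKM in WT cells, so its transcript did not separate the knockouts (log2 fold change 0.0046 ± 0.15, adjusted p = 0.999). The study states that T cells of this mouse line keep making a Rara transcript with an exon missing. A gene-level value sums every exon, and a deletion of part of the gene need not lower it, so the Rara value is no check of the RARα-KO label. The Cre transgene entry was at 824.25 and 79.29 FPKM in the 2 RARα-KO libraries and at 0.03 and 0.10 FPKM in the BATF-KO libraries. The Cre sequence thus marked the RARα-KO libraries, far higher in replicate 1 than in replicate 2, and the same was seen with RA (680.9 and 86.67 FPKM).

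Markers of other cell types differed between the groups, and these values stand here because they touch many of the results. All 14 B cell markers tested were higher in RARα-KO cells and 11 were called, with a median log2 fold change of 2.03. For Cd79a, a chain of the B cell receptor complex named after its values were seen, the values were 116.42 and 118.42 FPKM in RARα-KO cells and 27.11 and 19.46 FPKM in BATF-KO cells (adjusted p = 0.0222, and 0.0762 to 0.196 without single libraries). The summed FPKM of the B cell list was 942 and 1011 in RARα-KO cells, 422 and 395 in BATF-KO cells and 458 and 270 in WT cells. The RARα-KO libraries were above both other groups without overlap, and none of the 14 markers was at 0 in any library. Of 10 MHC class II genes 9 were called, of 11 natural killer (NK) and innate-like markers 4 and of 11 myeloid markers 2, all higher in RARα-KO cells. The 12 CD8 T cell markers went the other way, with all 12 lower in RARα-KO cells and 2 called (median -0.39), and they summed to 4065 and 3439 FPKM against 4976 and 5247 FPKM. The defining markers Cd8a (249.00 and 259.06 against 355.98 and 347.37 FPKM) and Cd8b1 were high in all libraries, as the label requires. In bulk RNA fewer cells of a type and less RNA per cell cannot be told apart. The part of these shifts in the other results was not tested, other than by 1 alternative fit with the mean B cell marker level as a covariate. In that fit 30 genes were called, 29 of them also called without it. The covariate was 4.868 and 4.996 in RARα-KO cells and 3.21 and 2.84 in BATF-KO cells on the log2 scale, and over the whole series its range was 4.87 to 5.19 in RARα-KO libraries, against 2.38 to 3.33 in all the others, so that genotype and marker level cannot be told apart. Without single libraries the B cell count was 7 (RARα-KO replicate 1 left out), 4 (RARα-KO replicate 2), 7 (BATF-KO replicate 1) and 4 (BATF-KO replicate 2). In the same order the count was 2, 4, 3 and 2 for MHC class II, 1, 4, 2 and 1 for NK, 0, 2, 2 and 0 for myeloid and 1, 0, 0 and 0 for CD8 T cell markers.

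**Figure D1:**
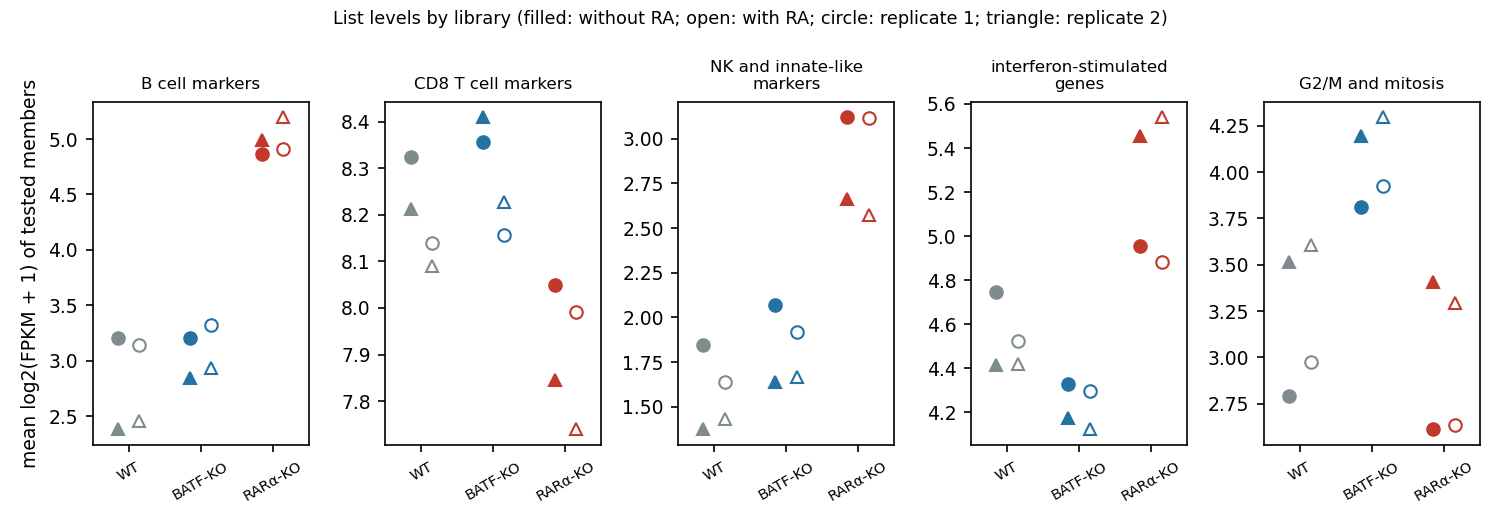
Mean log2(FPKM + 1) of the tested members of 5 lists in each of the 12 libraries (y axis, a separate scale per panel) by genotype (x axis). Filled symbols are without RA and open symbols with RA, circles are replicate 1 and triangles replicate 2. B cell and NK markers were higher and CD8 T cell markers lower in all 4 RARα-KO libraries than in the BATF-KO libraries, and in the interferon and mitosis panels the replicates lay apart within a genotype.

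Across all genes, 502 of 13396 were called between the knockouts without RA (3.75%), 376 higher in RARα-KO cells (2.81%) and 126 lower (0.941%). Counts of calls in gene lists stand against this share, and several lists lie near it. The median log2 fold change of all genes tested was -0.0071, 48.6% of genes were higher in RARα-KO cells, and 1719 genes had an unadjusted p under 0.05. No called gene overlapped between the groups, and 37.1% of all genes tested did not overlap either. Immunoglobulin segments made up 102 of the 376 genes called higher, out of 179 tested, and none was called lower. Named genes other than receptor segments gave 229 calls higher and 82 lower, predicted gene models 32 and 30, and pseudogenes 8 and 3. Without immunoglobulin and T cell receptor segments and B cell markers, 342 of 13063 genes were called. The count depended on single libraries, with 334 calls without RARα-KO replicate 1, 279 without RARα-KO replicate 2, 270 without BATF-KO replicate 1 and 176 without BATF-KO replicate 2. The same libraries compared with WT gave 441 genes for RARα-KO (3.29%) and 7 for BATF-KO (0.0523%), where 521 genes had an unadjusted p under 0.05 and leaving out 1 library left 1 call (either BATF-KO library or WT replicate 1) or 3 (WT replicate 2). These comparisons share libraries with the one between the knockouts, so their values are given only side by side.

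**Figure D2:**
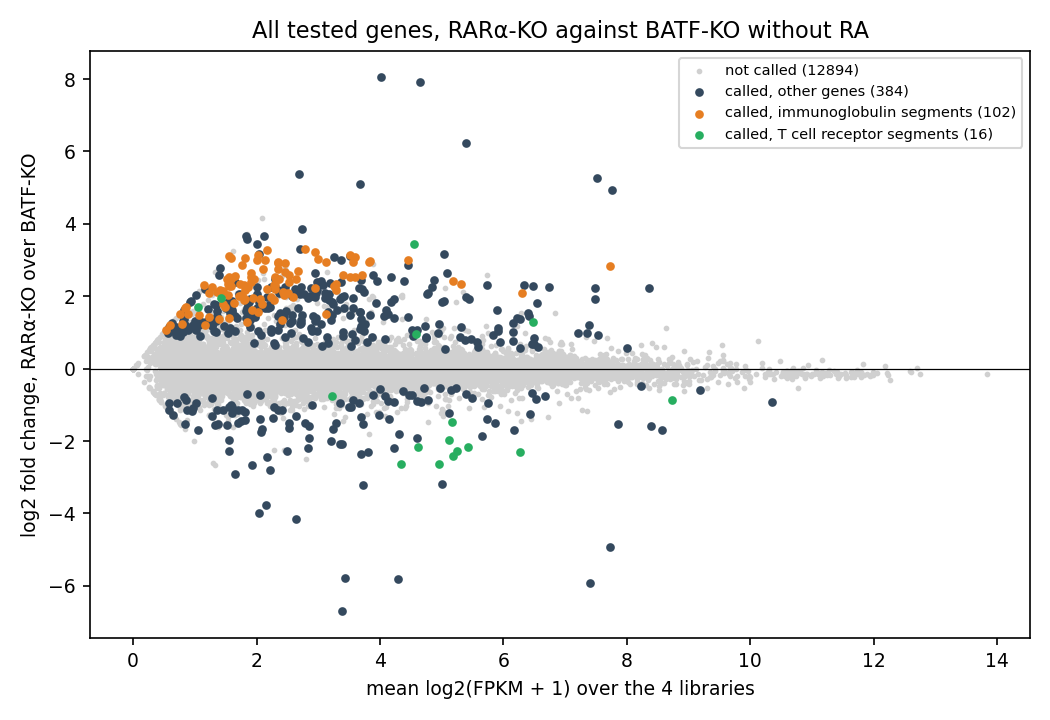
Log2 fold change of RARα-KO over BATF-KO cells without RA (y axis) against the mean log2(FPKM + 1) over the 4 libraries (x axis), 1 point per gene tested. Grey points are the genes not called, and the coloured points are the 502 called genes, among which all 102 immunoglobulin segments lie above 0.

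AP-1 factors, the partners and relatives of BATF, were mostly higher in RARα-KO cells. Of 18 AP-1 and small MAF factors 16 were higher (median 0.60) and 3 were called, namely Jun, Batf and Maff. Batf is the gene deleted in BATF-KO cells, so its direction was set by the design and is no result for its relatives. Jun, which forms the AP-1 dimer with FOS or BATF proteins, was at 45.69 and 47.19 FPKM in RARα-KO cells and 19.49 and 19.14 FPKM in BATF-KO cells, with 28.65 and 26.95 FPKM in WT cells. Replicates were close, the groups did not overlap, and WT lay between them (log2 fold change 1.22 ± 0.11, adjusted p = 0.000289). Junb, another JUN protein, was at 141.98 and 171.11 FPKM against 104.40 and 89.68 FPKM without passing the test (0.68 ± 0.17, adjusted p = 0.0675). Maff, a small MAF protein without a transactivation domain, was at 5.43 and 4.98 FPKM against 3.23 and 2.62 FPKM (0.66 ± 0.15, adjusted p = 0.041). Its call was lost without any 1 of the 4 libraries (adjusted p = 0.177 without RARα-KO replicate 1, 0.127 without RARα-KO replicate 2, 0.0901 without BATF-KO replicate 1 and 0.345 without BATF-KO replicate 2), whereas Jun and Batf kept theirs each time.

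The IRF family, of which IRF4 and IRF8 bind composite DNA elements with BATF, was also higher in RARα-KO cells. This held for 8 of 9 members (median 0.57), with Irf5, Irf1 and Irf8 called. Irf8 was at 101.14 and 199.92 FPKM in RARα-KO cells and 47.73 and 49.48 FPKM in BATF-KO cells. The RARα-KO replicates were both above the BATF-KO ones but replicate 2 was much the higher (1.53 ± 0.34, adjusted p = 0.0379). Irf5, which acts downstream of Toll-like receptors in B and myeloid cells, was at 16.96 and 16.10 FPKM against 4.65 and 3.49 FPKM (1.80 ± 0.25, adjusted p = 0.00418). Irf1, an interferon-γ-induced activator, was at 339.55 and 285.49 FPKM against 213.85 and 205.09 FPKM (0.57 ± 0.12, adjusted p = 0.0352). Irf4, the main partner of BATF in T cells, was at 50.54 and 91.72 FPKM against 35.13 and 36.93 FPKM and was not called (0.90 ± 0.37, adjusted p = 0.33). The call of Irf8 was lost without RARα-KO replicate 2 (adjusted p = 0.198), BATF-KO replicate 1 (0.182) or BATF-KO replicate 2 (0.204), and that of Irf1 without RARα-KO replicate 1 (0.179), BATF-KO replicate 1 (0.143) or BATF-KO replicate 2 (0.253). Irf5 lost its call only without BATF-KO replicate 2 (0.0526). Irf8 and Irf5 are also expressed by B and myeloid cells, whose markers moved with them.

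Among 22 effector lineage transcription factors, 17 were higher in RARα-KO cells (median 0.22) and 3 were called. Tbx21 encodes T-bet, which directs type 1 effector genes, and was at 16.74 and 47.31 FPKM in RARα-KO cells, 3.10 and 2.21 FPKM in BATF-KO cells and 5.60 and 13.95 FPKM in WT cells. Both RARα-KO libraries exceeded both BATF-KO libraries, and the WT libraries lay between them (log2 fold change 3.01 ± 0.55, adjusted p = 0.0156). Bhlhe40, a transcription factor that T cell receptor signals induce, was at 18.64 and 17.22 FPKM against 6.03 and 5.65 FPKM (1.47 ± 0.28, adjusted p = 0.0199). Stat3, the signal transducer of IL-6 and IL-21 receptors, was at 114.88 and 115.89 FPKM against 77.01 and 73.72 FPKM (0.61 ± 0.13, adjusted p = 0.0363). The Tbx21 call was lost without RARα-KO replicate 2 (log2 fold change 2.29, adjusted p = 0.0956), BATF-KO replicate 1 (3.19, 0.0705) or BATF-KO replicate 2 (2.84, 0.135). Bhlhe40 and Stat3 lost theirs without any 1 library, with adjusted p of 0.0965, 0.0874, 0.0991 and 0.155 for Bhlhe40 and 0.12, 0.15, 0.146 and 0.257 for Stat3, in the order RARα-KO replicate 1, RARα-KO replicate 2, BATF-KO replicate 1 and BATF-KO replicate 2. The EGR, NR4A and immediate early factors gave 1 call in 18 (5.56%, against 3.75% over all genes). It was Dusp5, a phosphatase of ERK kinases, at 16.48 and 23.67 FPKM against 8.44 and 7.33 FPKM (1.23 ± 0.20, adjusted p = 0.00869), lost without RARα-KO replicate 2 (0.0625) or BATF-KO replicate 2 (0.0949). All 14 NF-kB subunits and inhibitors were higher in RARα-KO cells (median 0.57), and Nfkb2, which encodes the p100 precursor, was the 1 called (74.86 and 81.31 against 49.88 and 43.78 FPKM, 0.73 ± 0.15, adjusted p = 0.0261), a call that did not hold without any 1 of the 4 libraries (adjusted p = 0.074, 0.146, 0.0789 and 0.242 in the same order).

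The study named 11 genes as raised without RARα in these cultures. Since that list was chosen on these samples, its direction is not independent evidence. All 11 were higher in RARα-KO than in BATF-KO cells (median 1.62) and 4 were called, namely Jun, Tbx21, Irf8 and Il12rb2. Il12rb2, the signalling chain of the IL-12 receptor, was at 11.74 and 17.58 FPKM in RARα-KO cells, 2.86 and 2.76 FPKM in BATF-KO cells and 5.57 and 13.45 FPKM in WT cells (2.01 ± 0.45, adjusted p = 0.0405). The BATF-KO libraries were below all the others. The 7 genes not called had a common shape, with the 2 RARα-KO libraries far apart. Ifng, the type 1 effector cytokine, was at 50.65 and 331.50 FPKM in RARα-KO cells and 22.42 and 19.02 FPKM in BATF-KO cells (2.60 ± 0.71, adjusted p = 0.0934). Lif was at 3.87 and 20.90 FPKM against 0.91 and 0.79 FPKM (2.48 ± 0.68, adjusted p = 0.0936). The orphan nuclear receptor Nr4a3 was at 22.84 and 77.44 FPKM against 19.16 and 12.63 FPKM (1.38 ± 0.57, adjusted p = 0.323). In each of these replicate 2 of RARα-KO was the high library, as it was for the chemokine Ccl3 (106.13 and 347.46 against 76.69 and 57.14 FPKM), the zinc finger repressor Zbtb32 (9.75 and 23.60 against 3.23 and 4.79 FPKM), the IL-12 receptor chain Il12rb1 (14.39 and 28.55 against 5.95 and 5.92 FPKM) and the interferon-stimulated Ifit1 (17.28 and 35.76 against 9.89 and 9.17 FPKM). The groups did not overlap for any of the 11 (37.1% over all genes). With RARα-KO replicate 2 left out 1 of the 11 was called and the median was 1.15, and with RARα-KO replicate 1 left out 7 were called and the median was 2.29. Without BATF-KO replicate 1, and likewise without BATF-KO replicate 2, 1 was called, and Il12rb2 lost its call without any 1 library (adjusted p = 0.0774, 0.216, 0.174 and 0.23 without RARα-KO replicates 1 and 2 and BATF-KO replicates 1 and 2).

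Further genes were listed by the study. Of its transcription factors, a list not independent of these samples, 9 passed the filter and 3 were called, all higher in RARα-KO cells (Jun, Batf and Tbx21). The direction of Batf, the gene deleted in BATF-KO cells, was set by the design. Fos was at 3.04 and 3.95 FPKM against 1.80 and 1.28 FPKM, Egr1 at 24.83 and 38.25 FPKM against 24.11 and 12.77 FPKM, and Egr2 at 14.81 and 26.42 FPKM against 15.79 and 9.63 FPKM, none of them past the test. Tcf7, which encodes the naive and stem-like factor TCF1, was at 429.63 and 317.63 FPKM in RARα-KO cells and 439.74 and 382.27 FPKM in BATF-KO cells, and the groups overlapped (-0.15 ± 0.19, adjusted p = 0.887). From chromatin immunoprecipitation of separate cultures the study also named 12 loci bound by both factors. Among these 12 loci is Tbx21, which the study elsewhere gives as bound mostly by BATF alone. Of the 12 loci 11 were tested, all were higher in RARα-KO cells (median 1.22), and 5 were called, with Gzma beside Jun, Tbx21, Irf8 and Il12rb2. Without single libraries the median was 1.32 (RARα-KO replicate 1), 1.20 (RARα-KO replicate 2), 1.54 (BATF-KO replicate 1) and 1.21 (BATF-KO replicate 2), and not all calls held. The not called members included Nr4a1 (62.19 and 90.39 against 54.84 and 25.11 FPKM), the chemokine Ccl5 (83.00 and 41.93 against 39.88 and 19.39 FPKM), Il18r1 (23.18 and 13.74 against 13.03 and 10.54 FPKM) and Ifngr1 (167.61 and 103.48 against 160.57 and 85.68 FPKM). Ifngr1 overlapped between the groups and the other 3 did not, as was so for 37.1% of all genes tested.

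Genes with a retinoic acid response element were a list of 5 named by the study, in part from these libraries and so not independent evidence. Of the 5, 4 were lower in RARα-KO than in BATF-KO cells and 1 was called. Nt5e, which encodes the adenosine-producing surface enzyme CD73, was at 5.94 and 2.59 FPKM in RARα-KO cells, 20.76 and 19.22 FPKM in BATF-KO cells and 18.56 and 18.13 FPKM in WT cells. The RARα-KO libraries were alone in being low (log2 fold change -2.07 ± 0.28, adjusted p = 0.00342), and the gene was called without any 1 of the 4 libraries. The gut homing receptor Ccr9 (36.44 and 14.00 against 30.16 and 25.49 FPKM) and the integrin chain Itga4 (53.62 and 32.54 against 57.02 and 37.07 FPKM) overlapped between the groups. The ADP-ribosyltransferase Art2b (81.34 and 44.55 against 100.61 and 81.71 FPKM) was not called, and neither was the ATP-gated channel P2rx7 (5.38 and 1.89 against 1.01 and 0.58 FPKM). Among 10 tested genes of the retinoid response and retinoid metabolism and 15 receptors and cofactors limma called none, with 2 and 1 at an unadjusted p under 0.05 and medians of 0.17 and 0.0046.

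**Figure D3:**
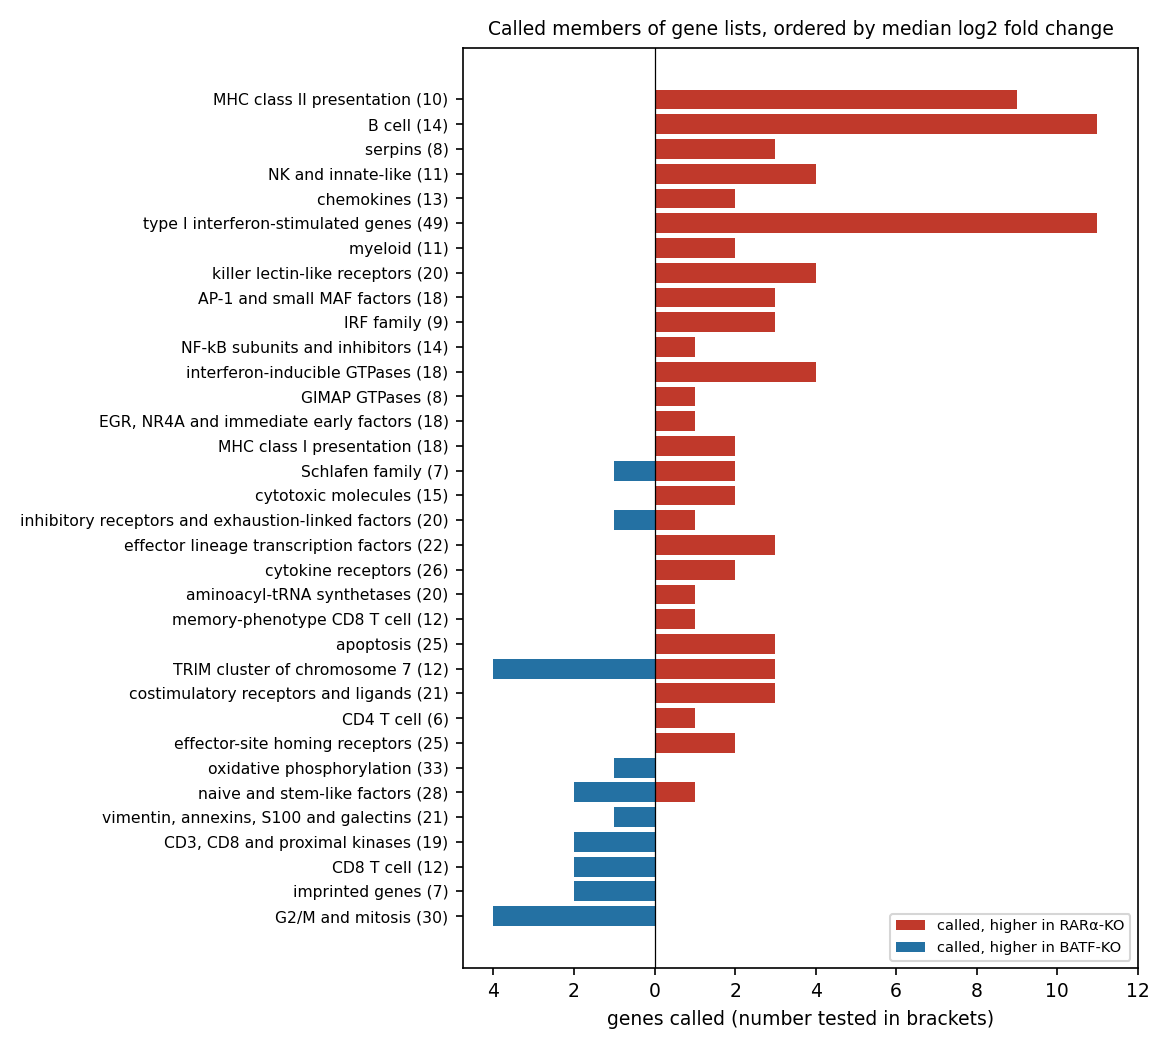
Number of called members per gene list (x axis), with bars to the right for genes higher in RARα-KO cells and bars to the left for genes higher in BATF-KO cells, and the number tested in brackets. Lists are ordered by their median log2 fold change, and lists without a call and the study's own lists are left out. MHC class II and B cell markers stand at the top, and mitosis genes at the bottom with 4 of 30 called.

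Effector molecules of cytotoxic cells were only partly higher. Of 15 cytotoxic molecules 10 were higher in RARα-KO cells (median 0.23) and 2 were called. Gzma, a granule protease, was at 82.14 and 40.98 FPKM against 6.52 and 7.94 FPKM, with WT at 11.21 and 4.26 FPKM (2.85 ± 0.51, adjusted p = 0.0133). Fasl, which encodes the FAS ligand, was at 2.82 and 2.26 FPKM against 0.46 and 0.48 FPKM (1.26 ± 0.22, adjusted p = 0.0123). Gzmb and Prf1, the major granule protease and the pore-forming protein, were looked up after their values were seen. Gzmb was at 222.03 and 858.91 FPKM in RARα-KO cells and 298.52 and 235.65 FPKM in BATF-KO cells, and Prf1 at 12.04 and 24.95 FPKM against 14.54 and 13.32 FPKM. Both overlapped between the groups. Gzma lost its call without RARα-KO replicate 1 (adjusted p = 0.0807), BATF-KO replicate 1 (0.0905) or BATF-KO replicate 2 (0.0842), and Fasl likewise (0.0801, 0.0791 and 0.0959). NK markers, which moved the same way, share Gzma and Fasl expression with cytotoxic T cells.

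Of 8 serpins 3 were called, all higher in RARα-KO cells. Serpina3g, an intracellular inhibitor of cysteine proteases, was at 88.99 and 105.99 FPKM against 9.32 and 10.54 FPKM, with WT at 19.96 and 9.25 FPKM (3.17 ± 0.36, adjusted p = 0.00145). Its neighbour Serpina3f was at 23.25 and 30.39 FPKM against 2.14 and 2.43 FPKM (3.07 ± 0.33, adjusted p = 0.00114), and Serpinb1a, an inhibitor of neutrophil-type proteases, at 14.09 and 10.69 FPKM against 2.67 and 1.64 FPKM (2.09 ± 0.27, adjusted p = 0.00251). Replicates lay close together in all 3 genes and each was called without any 1 library. Serpina3f and Serpina3g are near-identical members of a gene cluster and could exchange reads.

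Of 18 cytokines limma called 0, with 6 at an unadjusted p under 0.05, and of these 18 Ifng had the largest difference. Of 13 chemokines 11 were higher in RARα-KO cells (median 0.99) and 2 were called. Cxcl10, an interferon-induced ligand of CXCR3, was at 28.29 and 25.92 FPKM against 5.58 and 4.61 FPKM, with WT at 16.75 and 9.23 FPKM (2.21 ± 0.33, adjusted p = 0.0056). Cxcl16 was at 3.14 and 2.21 FPKM against 0.72 and 0.52 FPKM (1.17 ± 0.22, adjusted p = 0.0176). Of 26 cytokine receptors 16 were higher and 10 lower in RARα-KO cells (median 0.20). Il12rb2 and Il9r were called, and Il9r was at 1.54 and 2.04 FPKM against 0.17 and 0.06 FPKM (1.32 ± 0.19, adjusted p = 0.00467). Cxcl10 and Il9r lost their calls without BATF-KO replicate 2 (adjusted p = 0.0642 and 0.0574), and Cxcl16 without RARα-KO replicate 1 (0.113), BATF-KO replicate 1 (0.0738) or BATF-KO replicate 2 (0.164).

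Costimulatory and inhibitory receptors gave few calls. Of 21 costimulatory receptors and ligands 11 were higher and 10 lower in RARα-KO cells (median 0.031), and 3 were called, all higher. Tnfrsf9, which encodes the activation-induced receptor 4-1BB, was at 136.98 and 221.91 FPKM against 49.08 and 48.24 FPKM, with WT at 36.24 and 53.48 FPKM (1.82 ± 0.25, adjusted p = 0.00369). Its call held without any 1 library. The early activation marker Cd69 was at 85.56 and 117.52 FPKM against 53.82 and 44.78 FPKM (1.02 ± 0.20, adjusted p = 0.0221), and Cd83 at 21.56 and 24.55 FPKM against 9.53 and 5.96 FPKM (1.49 ± 0.34, adjusted p = 0.0434). Cd69 lost its call without RARα-KO replicate 2 (0.143), BATF-KO replicate 1 (0.0667) or BATF-KO replicate 2 (0.209), and Cd83 without any 1 library (0.114, 0.199, 0.0723 and 0.347 without RARα-KO replicates 1 and 2 and BATF-KO replicates 1 and 2). Among 20 inhibitory receptors and exhaustion-linked factors, Cd274, which encodes PD-L1, was called higher (92.83 and 64.97 against 44.52 and 36.15 FPKM, 0.94 ± 0.21, adjusted p = 0.038) and Nt5e lower. The Cd274 call was lost without RARα-KO replicate 1 (0.18), BATF-KO replicate 1 (0.0867) or BATF-KO replicate 2 (0.31).

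Genes of the naive state and of T cell receptor signalling gave 5 calls, 4 of them lower in RARα-KO cells. Of 28 naive and stem-like factors 23 were lower (median -0.21). Dapl1, a marker of naive CD8 T cells, was at 71.74 and 83.34 FPKM in RARα-KO cells, 128.27 and 134.48 FPKM in BATF-KO cells and 218.72 and 182.74 FPKM in WT cells, so both knockouts lay below WT and RARα-KO lowest (-0.76 ± 0.13, adjusted p = 0.0112). Nsg2 was at 33.47 and 30.66 FPKM against 57.13 and 48.86 FPKM (-0.70 ± 0.16, adjusted p = 0.0463). Cxcr5, a homing receptor of B cells and follicular T cells, was the 1 member called higher, at 18.10 and 22.47 FPKM against 5.82 and 5.48 FPKM (1.67 ± 0.28, adjusted p = 0.00932), beside the B cell markers given above. Of 19 genes for CD3, CD8 and proximal kinases 17 were lower, and Trbc1, a constant segment of the T cell receptor β chain, was called at 350.26 and 280.09 FPKM against 555.41 and 588.53 FPKM (-0.87 ± 0.18, adjusted p = 0.0309), as was Cd8a (-0.47 ± 0.11, adjusted p = 0.0445). These calls depended on single libraries. Dapl1 was not called without RARα-KO replicate 1 (0.0744), BATF-KO replicate 1 (0.0636) or BATF-KO replicate 2 (0.113). Trbc1 and Cxcr5 were not called without RARα-KO replicate 2 (0.194 and 0.0723), BATF-KO replicate 1 (0.124 and 0.0563) or BATF-KO replicate 2 (0.216 and 0.0856). Nsg2 and Cd8a were not called without any 1 library, with adjusted p of 0.107, 0.215, 0.282 and 0.133 for Nsg2 and 0.172, 0.14, 0.227 and 0.225 for Cd8a.

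Interferon-stimulated genes formed the longest list with a common direction. Of 49 tested 47 were higher in RARα-KO cells, with a median log2 fold change of 0.88 against -0.0071 for all genes, and 11 were called. The mean log2(FPKM + 1) of the list was 4.95 and 5.45 in RARα-KO cells, 4.33 and 4.17 in BATF-KO cells and 4.74 and 4.42 in WT cells, so BATF-KO lay below WT and RARα-KO above it. Oas1a, an RNA-sensing enzyme, was at 10.12 and 18.33 FPKM against 2.91 and 2.39 FPKM (2.01 ± 0.33, adjusted p = 0.0081). Stat2, a subunit of the interferon-activated factor ISGF3, was at 108.50 and 141.42 FPKM against 50.95 and 43.58 FPKM, with WT at 71.72 and 62.13 FPKM (1.38 ± 0.24, adjusted p = 0.0109). Phf11b (28.80 and 36.04 against 14.80 and 14.72 FPKM, adjusted p = 0.00464) and the apoptosis regulator Xaf1 (49.92 and 68.45 against 29.16 and 22.95 FPKM, adjusted p = 0.0185) were also called. With mean B cell marker expression as a covariate the median of the list was 0.13, with 0 calls among 30 calls over all genes. Genotype and marker level cannot be told apart in that fit, so nothing is drawn from it. The direction held under each left-out library while the calls did not. The list had 14 calls and a median of 1.22 without RARα-KO replicate 1, 1 call and 0.70 without RARα-KO replicate 2, 3 calls and 0.97 without BATF-KO replicate 1, and 0 calls and 0.92 without BATF-KO replicate 2 (176 genes called over all genes in that fit). Oas1a and Stat2 lost their calls without RARα-KO replicate 2 (0.0587 and 0.0832) or BATF-KO replicate 2 (0.0844 and 0.113), Phf11b without BATF-KO replicate 2 (0.0506), and Xaf1 without RARα-KO replicate 2 (0.124), BATF-KO replicate 1 (0.0506) or BATF-KO replicate 2 (0.187).

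All 18 interferon-inducible GTPases were higher in RARα-KO cells (median 0.53) and 4 were called. These proteins attack the membranes of vacuoles that hold pathogens. Iigp1 was at 256.44 and 208.50 FPKM in RARα-KO cells, 112.80 and 118.38 FPKM in BATF-KO cells and 180.68 and 176.19 FPKM in WT cells. WT lay between the knockouts with no overlap (0.99 ± 0.15, adjusted p = 0.00546). Gbp10 was at 92.92 and 78.95 FPKM against 45.42 and 37.16 FPKM, with WT at 73.69 and 68.50 FPKM (1.04 ± 0.15, adjusted p = 0.00473). Gbp3 (67.59 and 53.79 against 36.37 and 35.60 FPKM, adjusted p = 0.0242) and Gbp11 (8.41 and 5.77 against 3.03 and 1.85 FPKM, adjusted p = 0.0333) had smaller differences. Guanylate-binding proteins are a family of close paralogs, so reads may be shared among them. Iigp1 was called without any 1 library, Gbp10 was not without BATF-KO replicate 2 (0.0608), and Gbp3 was not without RARα-KO replicate 1 (0.132), BATF-KO replicate 1 (0.124) or BATF-KO replicate 2 (0.182). Gbp11 was not called without any 1 library (0.171, 0.0534, 0.0551 and 0.292). The list had 2, 3, 2 and 1 calls without RARα-KO replicate 1, RARα-KO replicate 2, BATF-KO replicate 1 and BATF-KO replicate 2.

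All 18 genes of MHC class I presentation were likewise higher in RARα-KO cells (median 0.30), with the class I genes H2-Q6 (288.40 and 220.82 against 129.26 and 92.40 FPKM, adjusted p = 0.0209) and H2-Q10 (3.59 and 2.65 against 1.11 and 1.04 FPKM, adjusted p = 0.0321) called. H2-Q6 lost its call without RARα-KO replicate 1 (0.118) or BATF-KO replicate 2 (0.204) and H2-Q10 without any 1 library (0.17, 0.0665, 0.145 and 0.212). Both are near-identical to other class I genes. All 8 GIMAP GTPases, which sustain lymphocyte survival, were higher (median 0.42), and Gimap7 was called at 104.04 and 66.20 FPKM against 23.08 and 19.74 FPKM (1.91 ± 0.22, adjusted p = 0.00155) with WT at 38.92 and 36.41 FPKM. Of 25 apoptosis genes 17 were higher and 8 lower (median 0.12), and 3 were called, all higher. The inflammatory caspase Casp1 was at 9.45 and 9.93 FPKM against 1.67 and 1.32 FPKM (2.10 ± 0.16, adjusted p = 0.000118), Casp4 at 6.99 and 12.40 FPKM against 1.45 and 0.91 FPKM (adjusted p = 0.00434), and the BCL-2 family survival gene Bcl2a1a at 4.69 and 6.89 FPKM against 0.79 and 0.44 FPKM (adjusted p = 0.00292). Only Casp4 among these 4 genes lost its call, without BATF-KO replicate 2 (0.0531).

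Cell cycle genes had mostly negative differences. All 30 genes of G2/M and mitosis were lower in RARα-KO than in BATF-KO cells (median -0.96) and 4 were called. Kif23, a kinesin of cytokinesis, was at 5.76 and 7.95 FPKM in RARα-KO cells, 22.62 and 20.35 FPKM in BATF-KO cells and 12.35 and 14.46 FPKM in WT cells (-1.53 ± 0.16, adjusted p = 0.000995). Ccnb2, which encodes cyclin B2, was at 3.16 and 3.14 FPKM against 9.98 and 13.14 FPKM, with WT at 3.49 and 4.44 FPKM (-1.59 ± 0.21, adjusted p = 0.00292). For Ccnb2 the BATF-KO libraries stood above both other groups, whereas for Kif23 WT was in the middle. The spindle protein Nusap1 (3.52 and 5.22 against 13.23 and 19.14 FPKM, adjusted p = 0.031) and the ubiquitin-conjugating enzyme of the anaphase-promoting complex Ube2c (6.20 and 14.71 against 29.61 and 44.30 FPKM, adjusted p = 0.0421) were also called. The mean log2(FPKM + 1) of the list was 2.61 and 3.40 in RARα-KO cells, 3.81 and 4.19 in BATF-KO cells and 2.79 and 3.51 in WT cells, with replicate 2 above replicate 1 in each group. The erythroid and platelet markers differed between the replicate numbers in the opposite sense, with sums of 178.1 and 14.0 FPKM in RARα-KO cells and 512 and 31.1 FPKM in BATF-KO cells. With the replicate number as a block, 23 of the 30 mitosis genes were called lower, against 4 without it. Replicate numbers are not stated to mark a shared animal or day. Without single libraries the mitosis list had 2 calls and a median of -0.49 (RARα-KO replicate 1), 3 and -1.46 (RARα-KO replicate 2), 2 and -1.21 (BATF-KO replicate 1), and 2 and -0.73 (BATF-KO replicate 2). Kif23 and Ccnb2 were called each time, Nusap1 never (adjusted p = 0.15, 0.0723, 0.0736 and 0.263 in that order), and Ube2c only without RARα-KO replicate 2 (0.183 without RARα-KO replicate 1, 0.0913 without BATF-KO replicate 1 and 0.329 without BATF-KO replicate 2). With mean B cell marker expression as a covariate the median of the list was 0.44, of the opposite sign, with 0 calls among 30 calls over all genes. As stated above, that fit cannot separate genotype from marker level, and nothing is drawn from it. Of 40 G1/S and replication genes 36 were lower and 0 were called (median -0.18, 1 at an unadjusted p under 0.05).

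Metabolic and growth lists had few calls and small medians between the knockouts, though members of some shared a direction. In RARα-KO cells 35 ribosome biogenesis and MYC genes were higher and 2 lower, and all 20 heat shock genes were higher. Of the aminoacyl-tRNA synthetases 19 were higher and 1 lower, and of the oxidative phosphorylation genes 3 were higher and 30 lower. Glycolysis (13 higher, 14 lower) and proteasome genes (11 higher, 14 lower) were mixed. Glycolysis and hypoxia (27 genes, median -0.0022), cholesterol and fatty acid synthesis (30 genes, 0.21), amino acid supply and the integrated stress response (23 genes, 0.20), ribosome biogenesis and MYC targets (37 genes, 0.23), the proteasome (25 genes, -0.023), heat shock proteins (20 genes, 0.11) and cytokine signal inhibitors (10 genes, 0.069) had 0 calls by limma. In that order 3, 2, 4, 0, 0, 0 and 0 of their genes had an unadjusted p under 0.05. Of 33 oxidative phosphorylation genes 1 was called (3.03%, against 3.75% over all genes). It was the cytochrome c oxidase subunit gene Cox7a2, at 52.76 and 57.46 FPKM against 120.89 and 144.89 FPKM (-1.25 ± 0.15, adjusted p = 0.00194), with WT at 114.63 and 133.32 FPKM near BATF-KO. Of 20 aminoacyl-tRNA synthetases 1 was called (5.0%, against 3.75% over all genes). It was Wars, the interferon-γ-inducible tryptophanyl enzyme, at 121.32 and 118.63 FPKM against 66.85 and 65.20 FPKM, with WT at 85.85 and 89.20 FPKM (0.85 ± 0.12, adjusted p = 0.00342). Both were called without any 1 library. The sex-linked list, which did not hold the X-linked Mid1 given below, had 0 calls among 4 genes tested, and none at an unadjusted p under 0.05.

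Receptors and markers of innate-like cells gave a few calls, all of the killer lectin-like ones higher in RARα-KO cells. The list of killer lectin-like receptors had 20 tested genes and also held Ncr1, which is not lectin-like. Of the 20, 15 were higher (median 0.78) and 4 were called, Klra9, Klrb1c, Klre1 and Ncr1, which are also the 4 called NK markers and had the same counts without single libraries. Klrb1c, which encodes NK1.1, was at 6.26 and 3.49 FPKM against 0.77 and 0.36 FPKM (1.88 ± 0.30, adjusted p = 0.00821). Klra9 was at 3.34 and 2.32 FPKM against 0.59 and 0.51 FPKM and Klre1 at 4.48 and 2.08 FPKM against 0.62 and 0.05 FPKM, and both calls were lost without RARα-KO replicate 1 (0.17 and 0.217), BATF-KO replicate 1 (0.145 and 0.0836) or BATF-KO replicate 2 (0.218 and 0.36), that of Klra9 also without RARα-KO replicate 2 (0.0774). Ncr1, the NK cell receptor NKp46, was at 6.26 and 6.05 FPKM against 0.41 and 0.32 FPKM (2.39 ± 0.21, adjusted p = 0.000256). The myeloid genes S100a8 and S100a9, subunits of calprotectin, were at 19.59 and 10.58 FPKM against 5.63 and 3.04 FPKM and at 89.83 and 34.10 FPKM against 16.14 and 9.38 FPKM (adjusted p = 0.0288 and 0.0287). Homing receptors of effector sites gave 2 calls in 25 (8.0%, against 3.75% over all genes), both higher, among them Ccr6 (6.59 and 5.15 against 0.42 and 1.55 FPKM, adjusted p = 0.0133). The list as a whole had no common direction, with 11 genes higher and 14 lower in RARα-KO cells (median -0.13). Of 6 CD4 T cell markers Zbtb7b, the CD4 lineage factor ThPOK, was called (4.36 and 5.16 against 2.35 and 1.77 FPKM, adjusted p = 0.0109), while Cd4 itself was at 2.83 and 1.96 FPKM against 0.73 and 0.92 FPKM and at 3.46 and 4.26 FPKM in WT. Of 12 markers of memory-phenotype CD8 T cells only Fasl was called, and of 4 dendritic cell markers tested none (2 at an unadjusted p under 0.05). Ncr1 kept its call without any 1 library. Klrb1c lost its call without RARα-KO replicate 1 (0.0563) or BATF-KO replicate 2 (0.0919), S100a8 without RARα-KO replicate 1 (0.147) or BATF-KO replicate 2 (0.258), S100a9 without these and BATF-KO replicate 1 (0.113, 0.256 and 0.0581), Ccr6 without RARα-KO replicate 1 (0.0801) or BATF-KO replicate 1 (0.0917), and Zbtb7b without RARα-KO replicate 2 (0.0928) or BATF-KO replicate 2 (0.126).

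The largest single differences were not in effector genes. Of the genes higher in BATF-KO cells, Mid1, a microtubule-associated ubiquitin ligase on the X chromosome (169685199 to 169990798), was at 117.55 and 179.60 FPKM in BATF-KO cells, 1.3 and 1.99 FPKM in RARα-KO cells and 4.59 and 6.39 FPKM in WT cells. BATF-KO was the genotype that stood apart (-5.80 ± 0.24, adjusted p = 1.75e-06). The same held for H19, an imprinted noncoding RNA (9.22 and 8.01 FPKM in BATF-KO, 0.64 and 0.38 FPKM in RARα-KO, with 0.27 and 1.47 FPKM in WT, adjusted p = 0.00145), and Lgals3, which encodes galectin-3 and was the 1 called of 21 vimentin, annexin, S100 and galectin genes, or 4.76% against 3.75% over all genes (39.69 and 38.23 FPKM in BATF-KO, 9.65 and 6.12 FPKM in RARα-KO, with 7.09 and 8.65 FPKM in WT, adjusted p = 0.000905). All 3 were also called between BATF-KO and WT, where they made up 3 of the 7 calls beside Batf. Of 7 imprinted genes H19 and Snrpn were called, and Snrpn, a small nuclear ribonucleoprotein gene, was at 0.83 and 0.54 FPKM in RARα-KO cells against 4.37 and 3.46 FPKM, a call lost without any 1 library (adjusted p = 0.0563, 0.113, 0.134 and 0.089 in the order used above). The other 3 calls, named after their values were seen, were the gene models Gm21860 and Gm21748, both higher in BATF-KO cells, and Fam177a, lower in BATF-KO cells (9.64 and 10.10 FPKM, against 20.05 and 17.86 FPKM in RARα-KO and 20.63 and 19.96 FPKM in WT). Lrrc32, which encodes the TGF-β docking protein GARP, was at 10.21 and 8.61 FPKM in BATF-KO cells and 0.67 and 1.23 FPKM in RARα-KO cells (adjusted p = 0.00508). Igf2bp3, a fetal RNA-binding protein gene, was at 5.60 and 5.27 FPKM in BATF-KO cells and 0.28 and 0.40 FPKM in RARα-KO cells (adjusted p = 0.000256), and Drc1, a subunit of the ciliary dynein regulatory complex, at 26.38 and 30.42 FPKM in BATF-KO cells and 4.18 and 5.27 FPKM in RARα-KO cells (adjusted p = 0.00135). WT lay between the knockouts for Lrrc32, Igf2bp3 and Drc1, and Mid1, H19, Lgals3, Lrrc32, Igf2bp3 and Drc1 were each called without any 1 library.

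**Figure D4:**
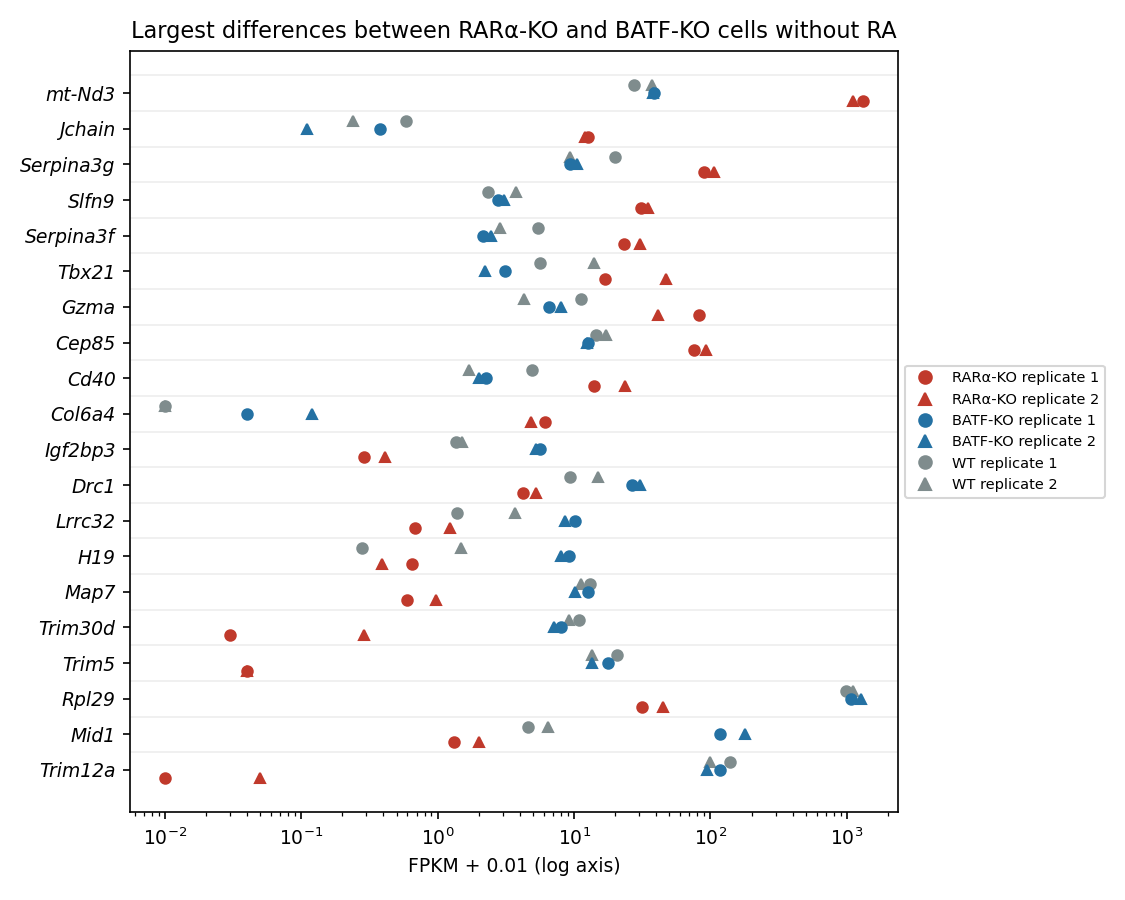
FPKM + 0.01 (x axis, log scale) of the 10 named genes with the largest difference in each direction, in each of the 2 RARα-KO, 2 BATF-KO and 2 WT libraries without RA. The RARα-KO and BATF-KO libraries do not overlap in any row, as the rule required. WT lies with BATF-KO for Trim12a, Trim5, Trim30d, Rpl29, Map7, mt-Nd3 and Slfn9, and near RARα-KO for Mid1 and H19.

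Another set of large differences had BATF-KO and WT together and RARα-KO apart. Trim12a, an antiviral ubiquitin ligase gene (chromosome 7, 104299893 to 104315558), was listed at 0 and 0.04 FPKM in RARα-KO cells, and was at 116.59 and 94.43 FPKM in BATF-KO and 140.05 and 99.11 FPKM in WT cells (adjusted p = 2.27e-07). Its neighbours Trim5 (0.03 and 0.03 against 17.59 and 13.54 FPKM) and Trim30d (0.02 and 0.28 against 8.06 and 7.13 FPKM) were almost undetected in RARα-KO cells, whereas Trim30c was higher there (10.09 and 9.89 against 1.47 and 1.54 FPKM). Of 12 tested genes of this TRIM cluster 4 were called lower and 3 higher in RARα-KO cells. The count was 3 lower and 2 higher without any 1 library. The others called, named after their values were seen, were Trim34a (17.52 and 17.52 against 35.66 and 32.18 FPKM), Trim34b (9.91 and 11.48 against 1.35 and 0.84 FPKM) and Trim12c (60.66 and 56.24 against 42.43 and 34.51 FPKM). Members of the cluster are close paralogs, so reads of one may be counted in another. Trim34a and Trim12c lost their calls without any 1 library (adjusted p = 0.0525, 0.0608, 0.0886 and 0.0627 for Trim34a and 0.163, 0.109, 0.0506 and 0.346 for Trim12c), and the other 5 kept theirs.

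The same split was seen at single ribosomal protein and mitochondrial entries that were named for their size, and not in these classes as a whole. Ribosomal protein genes took 21.6% and 21.0% of the summed FPKM in RARα-KO cells and 21.5% and 23.8% in BATF-KO cells, and mitochondrial genes 5.74% and 4.45% against 5.66% and 5.52%, with overlap in both. Rpl29, a large-subunit ribosomal protein gene (chromosome 9, 106428889 to 106431568), was at 31.21 and 45.18 FPKM in RARα-KO cells, 1069.18 and 1273.50 FPKM in BATF-KO cells and 981.61 and 1114.79 FPKM in WT cells (-4.92 ± 0.19, adjusted p = 1.19e-06). The pseudogene Rps7-ps3 was at 1187.78 and 1095.93 FPKM in RARα-KO cells and 25.09 and 32.15 FPKM in BATF-KO cells (5.28 ± 0.16, adjusted p = 2.27e-07), while its parent Rps7, read after its values were seen, was at 1016.37 and 894.34 FPKM against 1678.86 and 1925.03 FPKM. Rps7 and Rps7-ps3 together summed to 2204 and 1990 FPKM in RARα-KO cells, 1704 and 1957 FPKM in BATF-KO cells and 1937 and 1710 FPKM in WT cells. On this sum the 2 knockouts did not overlap, as was so for 37.1% of all genes tested. The mitochondrial complex I gene mt-Nd3 was at 1310.29 and 1104.92 FPKM in RARα-KO cells, 38.69 and 37.90 FPKM in BATF-KO cells and 27.69 and 37.14 FPKM in WT cells (4.94 ± 0.19, adjusted p = 1.19e-06). Among entries with no name beyond a model number, Gm8210 was at 263.81 and 261.92 FPKM in RARα-KO cells and listed at 0 in both BATF-KO libraries (adjusted p = 2.78e-09), Gm6969 was at 464.06 and 322.00 FPKM against 0.62 and 0.60 FPKM, and Gm13841 at 303.24 and 434.62 FPKM against 2.39 and 5.97 FPKM. In the opposite direction Gm28438 was at 13.65 and 31.53 FPKM against 1334.72 and 1313.22 FPKM and Hmgb1-ps8 at 0.08 and 0.98 FPKM against 92.62 and 67.21 FPKM. Pseudogenes and models of this kind share sequence with abundant parent genes, so each of these values is uncertain in how reads were split between copies.

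Further named genes with RARα-KO apart from both other groups were Slfn9, a Schlafen family member (30.76 and 34.73 FPKM against 2.74 and 3.05 FPKM, with 2.34 and 3.74 FPKM in WT, 3.11 ± 0.21, adjusted p = 4.06e-05), and Cep85, a centrosomal protein gene (76.00 and 92.22 FPKM against 12.67 and 12.32 FPKM, with 14.36 and 17.22 FPKM in WT, 2.65 ± 0.16, adjusted p = 1.85e-05). Of 7 Schlafen genes tested, Slfn9 and Slfn10-ps (9.88 and 12.49 against 4.25 and 3.59 FPKM) were called higher and Slfn8 (8.47 and 11.52 against 30.98 and 24.98 FPKM) lower. Col6a4, a collagen VI chain gene, was at 6.07 and 4.86 FPKM against 0.03 and 0.11 FPKM and was listed at 0 in both WT libraries. Map7, a microtubule-associated protein gene, was at 0.59 and 0.96 FPKM against 12.72 and 10.22 FPKM, with WT at 13.10 and 11.24 FPKM (-2.81 ± 0.17, adjusted p = 2.45e-05). Jchain, which joins IgM and IgA polymers (12.58 and 12.03 against 0.37 and 0.10 FPKM), and Cd40, a receptor of B and antigen-presenting cells (14.03 and 23.78 against 2.23 and 1.99 FPKM), moved with the B cell markers given above. Cd40 lost its call without RARα-KO replicate 2 (0.0734), BATF-KO replicate 1 (0.0558) or BATF-KO replicate 2 (0.0842) and Slfn8 without BATF-KO replicate 1 (0.0567), and the others of this paragraph kept theirs. Slfn9, Cep85, Map7, Trim12a, Trim5, Trim30d, Trim30c, Rpl29, mt-Nd3, Mid1 and Rps7-ps3 were also called with mean B cell marker expression as a covariate. Since genotype and marker level cannot be told apart in that fit, nothing is drawn from these calls.

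The levels of T cell receptor segments differed as well. Whether segment use, gene sequence or the assignment of reads lay behind this was not tested. Of 24 Trbv segments, which supply the variable part of the β chain, 9 were called lower and 3 higher in RARα-KO cells, while of 102 Trav segments of the α chain only Trav4-3, named after its values were seen, was called, lower. The 9 lower ones, from Trbv12-1 to Trbv17, follow each other in segment number, and were summed after their values were seen. Their sum was 198.1 and 114.8 FPKM in RARα-KO cells, 726.6 and 735.3 FPKM in BATF-KO cells and 782.3 and 587.6 FPKM in WT cells. Trbv13-2 was at 12.20 and 10.73 FPKM against 74.40 and 79.08 FPKM (-2.64 ± 0.16, adjusted p = 1.85e-05), and Trbv16 and Trbv17 were similarly low. Trbv24 was at 96.88 and 60.82 FPKM against 6.34 and 5.85 FPKM (3.46 ± 0.29, adjusted p = 0.000207), and Trbv1 (161.50 and 119.97 against 55.16 and 56.90 FPKM) and Trbv2 (33.58 and 31.80 against 14.89 and 17.59 FPKM) were the other higher ones. All Trbv segments together summed to 1160 and 799 FPKM in RARα-KO cells and 1306 and 1314 FPKM in BATF-KO cells. WT libraries lay with BATF-KO for the 9 lower segments and for Trbv24. Trbv1 lost its call without BATF-KO replicate 1 (0.0567) or BATF-KO replicate 2 (0.065), and narrowly without RARα-KO replicate 1 (0.05005). Trbv12-1 and Trbv14, of the 9 and also named after their values were seen, lost theirs without RARα-KO replicate 2 (0.0723 and 0.0593), BATF-KO replicate 1 (0.0608 and 0.0789) or BATF-KO replicate 2 (0.114 and 0.0664), and Trav4-3 lost its call without any 1 library (0.0954, 0.219, 0.103 and 0.345). The δ chain segments Trdv4 (2.21 and 3.33 against 0.15 and 0.14 FPKM) and Trdv5 (5.91 and 2.98 against 0.63 and 0.15 FPKM) were called higher and are likewise named after the fact. Trdv5 lost its call without RARα-KO replicate 1 (0.119), BATF-KO replicate 1 (0.0585) or BATF-KO replicate 2 (0.191).

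**Figure D5:**
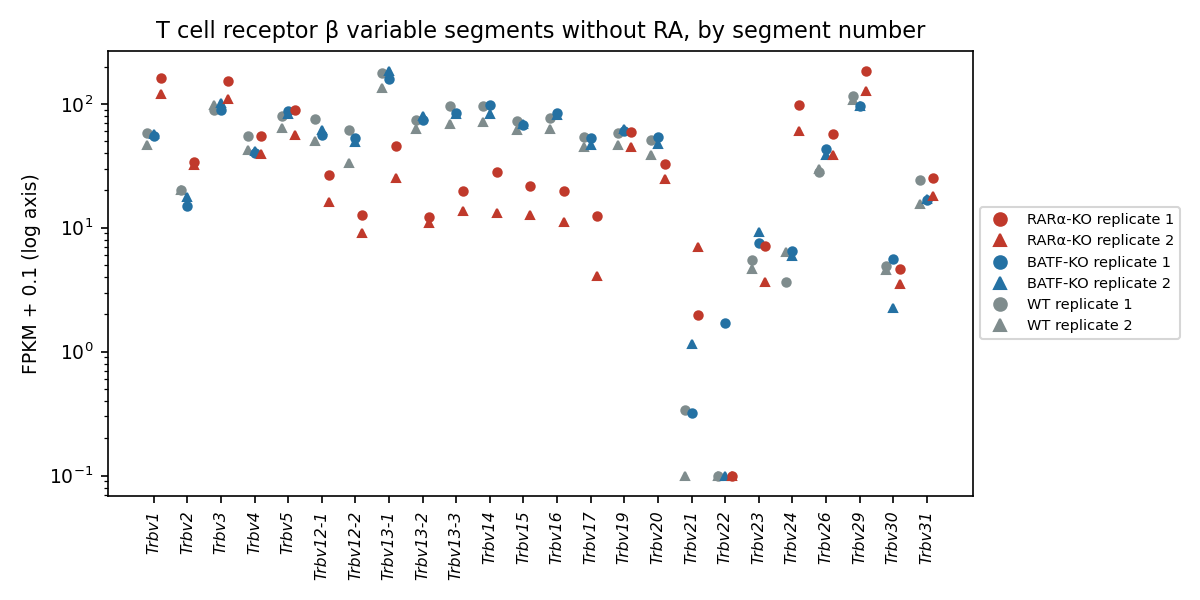
FPKM + 0.1 (y axis, log scale) of each T cell receptor β variable segment tested (x axis, in order of segment number) in the 2 RARα-KO, 2 BATF-KO and 2 WT libraries without RA. From Trbv12-1 to Trbv17 both RARα-KO libraries lie below all 4 others, and at Trbv24 they lie above them.

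Calls were also counted by position, for the genes with a place in the annotation, of which 2.92% were called (317 of 10842). Within 5 Mb of Batf 1 of 59 genes tested was called, which was Batf itself. Within 5 Mb of Rara 5 of 159 were called (3.14%). They were Tbx21 and Stat3 and, named after their values were seen, Tbkbp1, an adaptor of the kinase TBK1 (14.03 and 27.71 against 3.65 and 2.53 FPKM), the proton pump subunit gene Atp6v0a1 (8.71 and 7.31 against 2.79 and 2.78 FPKM) and the xylosyltransferase gene Xylt2, the 1 lower in RARα-KO cells (15.97 and 15.34 against 26.59 and 23.11 FPKM). Stretches of 5 Mb with many calls were picked after the data were seen, so no test is given for them. On chromosome 7 between 100 and 105 Mb 12 of 45 genes were called, 6 in each direction, and 7 of them belonged to the TRIM cluster. The stretches before and after it held 1 call among 27 and 1 among 20. On chromosome 9 between 105 and 110 Mb, around Rpl29, 8 of 90 genes were called. Besides Rpl29 and Col6a4 they included, by values already seen, the hydrolase genes Abhd14a (3.61 and 6.42 against 13.73 and 17.32 FPKM) and Abhd14b (0.68 and 0.41 against 2.91 and 2.76 FPKM) and, listed at 0 in both BATF-KO and both WT libraries, Cpne4 (4.14 and 2.30 FPKM in RARα-KO). The calls of Stat3, Xylt2, Abhd14a and Abhd14b depended on single libraries. Xylt2 was not called without any 1 of the 4 (0.109, 0.172, 0.251 and 0.115), Stat3 likewise as given above, Abhd14a not without RARα-KO replicate 1 (0.109), BATF-KO replicate 1 (0.0681) or BATF-KO replicate 2 (0.185), and Abhd14b not without RARα-KO replicate 2 (0.073), BATF-KO replicate 1 (0.0705) or BATF-KO replicate 2 (0.0765). Tbkbp1 and Tbx21 were not called without RARα-KO replicate 2 (0.0523 and 0.0956) or BATF-KO replicate 2 (0.0856 and 0.135), and Tbx21 also not without BATF-KO replicate 1 (0.0705).

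The place of WT relative to the knockouts is given as a description without a test, since the genes were called on 2 of the 3 groups. Of the 376 genes higher in RARα-KO cells WT was nearer to BATF-KO for 357 and nearer to RARα-KO for 19, and it lay between the knockouts for 189, below both for 186 and above both for 1. Of the 126 genes lower in RARα-KO cells WT was nearer to BATF-KO for 78 and nearer to RARα-KO for 48. Over all genes tested WT was nearer to BATF-KO for 58.2% of those higher and 54.9% of those lower in RARα-KO cells. Among named genes without B cell and MHC class II markers, WT was nearer to BATF-KO for 191 of the 210 called higher. For Nt5e, Gzma, Slfn9 and the serpins WT was close to BATF-KO. For Batf, Mid1, H19 and Lgals3 it was close to RARα-KO, and for Jun, Tbx21, Iigp1, Gimap7 and Kif23 it was between them.

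With RA at 15 nM the difference between the knockouts was measured in 4 other libraries. They share genotype and replicate number with those without RA, and deviations of same-numbered libraries from their group means correlated across genes at 0.578 for RARα-KO and 0.398 for BATF-KO, so the lists are not independent. There 557 of 13396 genes were called (4.16%), 412 higher in RARα-KO cells. The count was 340, 224, 318 and 185 without RARα-KO replicates 1 and 2 and BATF-KO replicates 1 and 2 of the cultures with RA. Of the 502 genes called without RA, 396 were also called with RA in the same direction, which is 78.9% of the first list and 71.1% of the second, and 501 had the same direction. The exception was H2-DMa, a chaperone of MHC class II loading, at 129.29 and 100.32 FPKM in RARα-KO cells against 69.23 and 71.57 FPKM in the absence of RA, whereas with RA it was at 199.60 and 195.84 FPKM against 226.22 and 200.27 FPKM. H2-DMa was named for its values, and its call without RA was lost without RARα-KO replicate 1 (0.18), BATF-KO replicate 1 (0.198) or BATF-KO replicate 2 (0.198). The change of the genotype difference with RA, tested as an interaction in limma, was called for 0 of 13396 genes, with 163 genes at an unadjusted p under 0.05 and a smallest adjusted p of 0.137. That test took same-numbered libraries with and without RA as independent. Among genes called without RA the difference with RA departed from that without it by a median of 0.17 on the log2 scale. Jun had a log2 fold change of 0.67 with RA and 1.22 without, Tbx21 1.96 and 3.01, Irf8 0.73 and 1.53, and Nt5e -2.36 and -2.07. The interferon list had 12 calls and a median of 0.90 with RA, and the mitosis list 6 calls lower in RARα-KO cells and a median of -1.15. The largest positional and segment differences were of nearly the same size, with log2 fold changes of -5.89 and -5.80 for Mid1, -5.05 and -4.92 for Rpl29 and 3.58 and 3.46 for Trbv24.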

How the data were processed

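RNA-seq libraries of 12 cultures (6 groups of 2) were used, mapped to groups by their titles, in which the RA suffix was read as RA added. Per the labels and the study's methods, the authors aligned reads with STAR 2.7.8a to GRCm38 (ENSEMBL) and quantified genes by RSEM 1.3.3. The deposited table holds FPKM to 2 decimals for 55487 genes and 4 transgene entries, with no scaling between libraries. The sources give library preparation both as a total RNA kit and as poly-A enrichment. No counts were used, so absolute depth is unknown and no counting interval is given.

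Genes with at least 1 FPKM in at least 2 libraries were tested on log2(FPKM + 1), which understates the change of low genes. limma 3.58.1 (R 4.3.3) was run with a mean for each of the 6 groups, all 12 libraries together, and a trended prior variance (6 residual and 3.39 prior degrees of freedom). The fit took all libraries as independent. Same-numbered libraries with and without RA deviated together, at 0.578 for RARα-KO, 0.427 for WT and 0.398 for BATF-KO. The 6 residual degrees of freedom may therefore overstate the replication. With only the 4 libraries compared, 256 genes were called, against 502. P-values are two-sided and adjusted over all genes within a comparison. The fit was tested on simulated data. Positions came from RefSeq (GRCm38.p6) for 21006 genes. Tables and plots used Python 3.11.15, pandas 2.3.3, numpy 2.4.6 and matplotlib 3.10.9.

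Named genes are Batf, Rara and transgenes, in each direction the 10 called genes that differed most, with at least 5 FPKM in the higher group and no overlap (3 for segments, models and pseudogenes), from each of the 43 function and 9 marker lists the 4 members of smallest adjusted p, and all members of 4 lists from the study. Others are said to be named after their values were seen. The members and lists were chosen with earlier results of these data known. Promoter motifs were not analysed here. Some genes that the rule names are not reported here.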

Additional observations from a re-analysis of the deposited data

Results flagged for a closer look

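Asb2, a ubiquitin ligase subunit gene that retinoic acid induces in myeloid cells, had differences between the knockouts of opposite sign without and with RA. The study also names Asb2 among RA-induced genes of CD8 T cells at which RA lowered RARα binding. Without RA it was at 1.32 and 2.08 FPKM in RARα-KO cells and 0.74 and 0.68 FPKM in BATF-KO cells (log2 fold change 0.64, limma adjusted p = 0.2), and with RA at 3.22 and 3.96 FPKM against 7.07 and 5.61 FPKM (-0.67, adjusted p = 0.168). Neither difference was called, and the knockouts did not overlap in either, as was so without RA for 37.1% of all genes tested. The difference between these, -1.32 on the log2 scale, did not pass the limma interaction test (adjusted p = 1), and the levels are low.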

How the results depend on the processing

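The comparison between the knockouts without RA gave 502 calls. The count was 256 with only the 4 libraries compared, 302 with only the 6 libraries without RA, 30 with mean B cell marker expression as a covariate, and 176 to 334 without 1 library. No gene of the 502 changed sign under the scaling, filter, pseudocount, trend, weight or leave-out alternatives, and 39 did with the covariate, among them the named genes H2-Aa (-0.32), Cd79a (-0.60) and Nusap1 (0.13). List medians with the covariate were 0.13 for interferon-stimulated genes, 0.032 for NF-kB, -0.078 for MHC class I and -0.014 for GIMAP genes. That of the interferon-inducible GTPases was 0.80. Genotype and marker level cannot be told apart with this covariate, so these values are given without a conclusion. The other alternatives, apart from the replicate block given below, gave 342 to 557 calls. With RA, 557 calls became 185 to 340 without 1 library. The comparisons with WT gave 247 to 302 calls for RARα-KO (lowest without WT replicate 2) and 1 to 3 for BATF-KO without 1 library. The interaction had 1 call with a pseudocount of 0.1 and 15 with no filter, and 0 without any 1 library. Leaving out libraries in comparisons other than the one between the knockouts without RA was chosen after seeing the data.

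Replicate numbers are shared across genotypes but are not stated to mark a shared animal or day. Deviations of same-numbered RARα-KO and BATF-KO libraries correlated at 0.271 across genes. With a replicate block 916 genes were called without RA, including all 502, and 1000 with RA (0 for the interaction). With the block 23 of the 30 mitosis genes were called, against 4, and 20 of the 49 interferon-stimulated genes, against 11.

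Of 143 called genes with values in the named set, 72 stayed called without any 1 library. With 2 libraries a group, a gene not called is not shown to be equal.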
